A study of Mus musculus with 12 samples.

Results

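The enzymes of cholesterol synthesis and the proteins that sense and handle sterols were followed in whole liver of mice aged 2 weeks, as a set of 27 named genes. A gene was taken by its transcript cluster on an Affymetrix Mouse Gene 1.0 ST array, using clusters annotated to exactly 1 gene and, where a gene had several, the cluster of highest mean over the 12 arrays. Of the 27 genes, 25 had such a cluster among the 19938 genes of the array, and Acat2 and Soat2 were not analysed here. All 25 lay above the level needed for testing in each of the 12 arrays, so none entered through 1 genotype alone. Fdft1 and Idi1 each had 2 clusters, which followed each other closely over the arrays. The values are log2 signals, and levels of different genes are not compared, since each rests on its own probes.

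Total RNA came from 4 genotypes with 3 arrays each, lettered A, B and C. Stat3Fl/Fl liver carries floxed Stat3 alleles and is the control. Stat3Δhc liver has Stat3 deleted. Stat3Fl/FlMdr2-/- liver has the floxed alleles and lacks Mdr2, and Stat3Δhc Mdr2-/- liver has Stat3 deleted and lacks Mdr2. Stat3 is a transcription factor switched on by cytokine and hormone receptors, and Mdr2 (gene Abcb4) is the transporter that moves phospholipid into bile. The study asked which pathways precede cholestasis and bile acid injury in the animals lacking both. The labels name neither the Cre driver nor the cells that lost Stat3, and nothing in them says that the arrays come from different animals, so that p-values measure only the spread between these arrays. The source field exchanges the names of the Mdr2-/- genotypes relative to the title, and the arrays were grouped by title.

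Cells make cholesterol from acetyl-CoA through mevalonate, isoprenoid diphosphates and squalene, which is closed into lanosterol and trimmed to cholesterol. The genes are switched on together by SREBP2, the product of Srebf2. SCAP escorts SREBP2 from the endoplasmic reticulum to the Golgi, where it is cut and released, and the INSIG proteins hold SCAP back when membrane sterol is high. Liver is a main site of this synthesis and turns much of the product into bile acids or secretes it into bile together with the phospholipid that Mdr2 supplies.

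The Stat3 signal followed the title in each array, with 9.19, 9.32 and 9.19 in Stat3Fl/Fl, 7.71, 7.73 and 7.69 in Stat3Δhc, 9.37, 9.27 and 9.54 in Stat3Fl/FlMdr2-/- and 8.12, 7.80 and 7.82 in Stat3Δhc Mdr2-/- liver. Abcb4 lay at 8.87 to 9.36 in the 6 Mdr2-/- arrays and at 9.9991 to 10.28 in the other 6. The 10 hepatocyte markers tested averaged 12.33 to 12.57 in every array, though single ones moved (3 of 10 fell with Mdr2 loss in Stat3Δhc liver, Cyp2e1 by a log2 change of -0.47 and Ttr by -0.36 among them). Other measures moved with the genotypes, and their part in the results below was not tested. High Xist with low Y-linked transcripts was seen in the 3 Stat3Fl/FlMdr2-/- arrays and in array A of Stat3Δhc Mdr2-/-, and the reverse in the other 8. The 15 skeletal muscle markers averaged 8.57 to 9.33 without the Mdr2 knockout and 5.43 to 5.80 with it. The 11 exocrine pancreas markers averaged 5.92 to 10.25 without the knockout and 5.60 to 5.98 with it. In whole liver, fewer cells of a type and less RNA per cell cannot be told apart.

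Promoters are shown for 6 members because the results turn on their order over the arrays: Hmgcs1, Msmo1 and Srebf2 carry letters of the sterol element that SREBP binds, Idi1 varied most among the arrays, and Insig1 and Insig2 had changes of opposite sign with Mdr2 loss in floxed liver. Each line gives the 250 bases before the start site, 5′ to 3′ on the gene's own strand, from RefSeq on GRCm38.p6, with matches to TCACNCCA and to CCAAT, the core bound by NF-Y, in capitals on either strand (ATTGG is CCAAT read on the opposite strand).
Hmgcs1: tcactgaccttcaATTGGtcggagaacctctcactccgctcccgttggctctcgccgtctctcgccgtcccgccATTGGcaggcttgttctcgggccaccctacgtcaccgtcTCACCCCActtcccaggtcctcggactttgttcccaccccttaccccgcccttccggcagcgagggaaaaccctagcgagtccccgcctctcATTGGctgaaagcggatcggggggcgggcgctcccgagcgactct
Msmo1: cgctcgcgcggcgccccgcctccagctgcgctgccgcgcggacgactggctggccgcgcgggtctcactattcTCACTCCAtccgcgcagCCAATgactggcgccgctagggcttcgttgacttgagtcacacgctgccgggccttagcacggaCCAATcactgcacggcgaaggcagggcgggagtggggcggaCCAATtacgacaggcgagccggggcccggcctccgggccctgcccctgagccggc
Srebf2: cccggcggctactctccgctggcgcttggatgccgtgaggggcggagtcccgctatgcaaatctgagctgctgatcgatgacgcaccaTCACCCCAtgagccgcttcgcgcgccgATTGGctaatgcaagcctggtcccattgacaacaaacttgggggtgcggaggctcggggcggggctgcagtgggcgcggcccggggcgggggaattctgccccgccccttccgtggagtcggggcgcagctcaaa
Idi1: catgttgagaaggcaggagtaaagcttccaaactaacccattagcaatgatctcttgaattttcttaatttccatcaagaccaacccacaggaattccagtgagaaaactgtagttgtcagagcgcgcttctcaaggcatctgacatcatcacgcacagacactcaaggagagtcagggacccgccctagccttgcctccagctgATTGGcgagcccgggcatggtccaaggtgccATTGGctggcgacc
Insig1: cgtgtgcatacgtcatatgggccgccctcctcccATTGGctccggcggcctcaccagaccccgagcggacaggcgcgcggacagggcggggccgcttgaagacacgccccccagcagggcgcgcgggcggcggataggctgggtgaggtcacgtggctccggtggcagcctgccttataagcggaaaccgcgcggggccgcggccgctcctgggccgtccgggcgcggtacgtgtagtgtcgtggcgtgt
Insig2: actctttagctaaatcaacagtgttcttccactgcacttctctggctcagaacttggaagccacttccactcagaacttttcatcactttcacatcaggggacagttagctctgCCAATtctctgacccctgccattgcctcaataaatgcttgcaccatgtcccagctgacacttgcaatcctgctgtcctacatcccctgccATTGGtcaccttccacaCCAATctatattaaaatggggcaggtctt

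These windows lie at chr13:119690101-119690350 on the plus strand for Hmgcs1, chr8:64733579-64733828 on the minus strand for Msmo1 and chr15:82147019-82147268 on the plus strand for Srebf2. The others lie at chr13:8885356-8885605 on the plus strand for Idi1, chr5:28071162-28071411 on the plus strand for Insig1 and chr1:121332590-121332839 on the minus strand for Insig2, which has 3 start sites in the table, of which the most upstream is shown. Of the 27 genes, 22 had a promoter entry, with 28 start sites in all. TCACNCCA was found in 3 of the 28, beginning 137 bases before the start in Hmgcs1, 177 in Msmo1 and 162 in Srebf2, against 3.67% of the 32851 promoters of the table. The longer form TCACNCCAC, which contains it, was found in Hmgcs1 and in 1.05% of all promoters. These shares of all promoters are per start site, so that the count of the members' start sites is the like one. CCAAT was found in 20 of the 28 start sites, 1 for each of 20 genes, against 33.8% of all promoters, and was missing from the windows of Acat2 and Scap. GGGCGG, the core bound by Sp1, was found in 21 of the 28 start sites (19 genes) and in 32.7% of all promoters. The E-box CACGTG was found in 5 of the 28 (Dhcr7, Hsd17b7, Insig1, Sc5d and Scap) and in 6.02% of all promoters. A match is a string of letters and not a measured site.

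Over the 12 arrays, the synthesis genes were high in 1 array. Array B of Stat3Δhc Mdr2-/- held the highest of the 12 values in 18 of the 25 members, against 5.85% of the 13977 genes tested. Its members averaged 9.22, against 8.29 in array A and 8.05 in array C of the same genotype and 8.0015 to 8.52 in the 9 arrays of the other genotypes. Measured from the mean of arrays A and C, array B was higher in 23 of the 25 members, with a median excess of 0.85, against a median of 0.02 over all genes tested. When the 13977 genes were ranked by this excess, members took 7 of the first 10 places, 11 of the first 20 and 16 of the first 50. The other places of the first 10 went to the Y-linked Eif2s3y, Uty and Kdm5d, and Xist was last. Array A has the Xist pattern and arrays B and C do not, so the excess also holds a difference of this pattern. Its part in the members' excess was not tested.

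**Figure D1:**
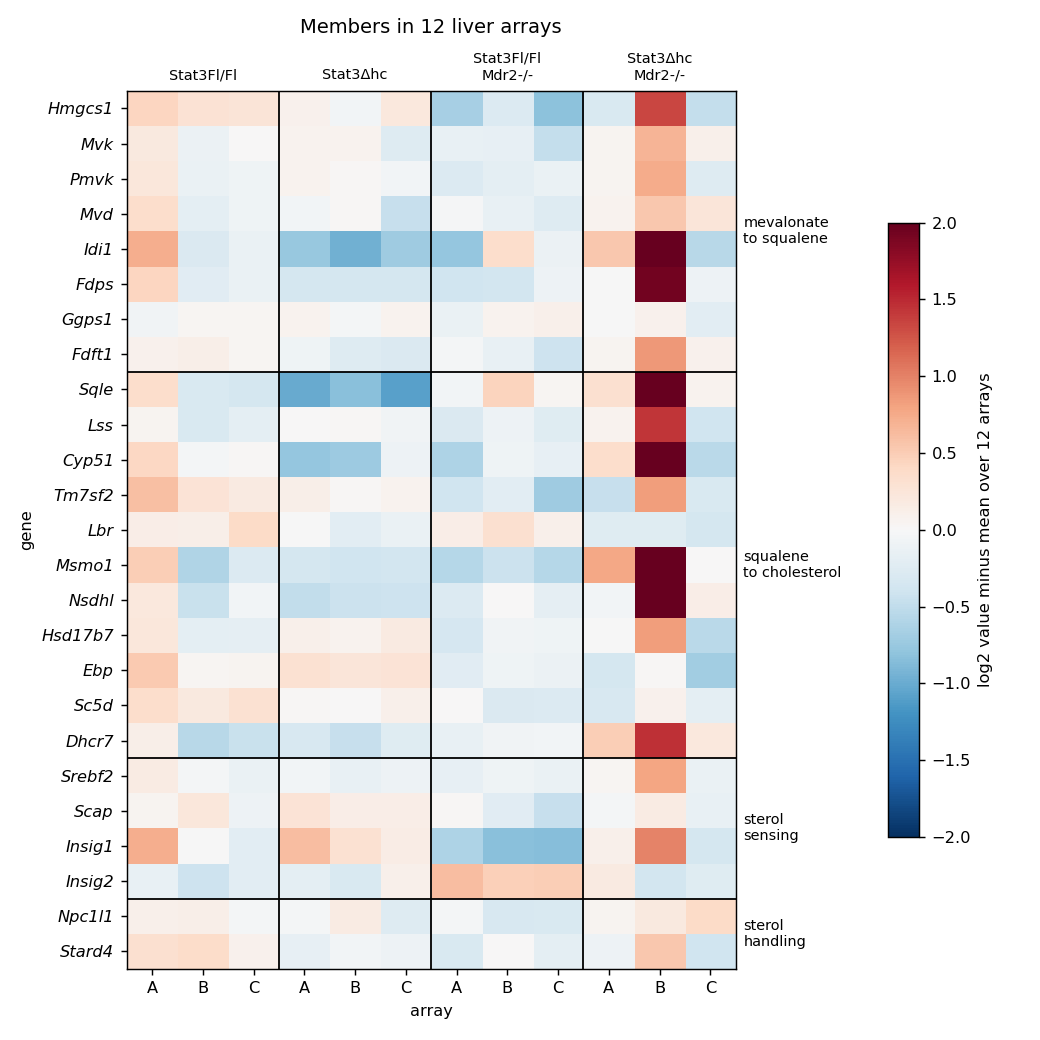
Log2 value of each of the 25 members (rows, by role) in each of the 12 arrays (columns, by genotype), as the difference from the gene's own mean over the 12 arrays, with colours capped at 2 in either direction. The dark red column is array B of Stat3Δhc Mdr2-/-, the highest of the 12 in 18 members, and Insig2 runs against most of the column.

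The excess in array B ran through both stretches of the pathway, before and after squalene. It was largest for Idi1, the isomerase that makes the isoprenoid chain starter, at 2.70. It came to 2.34 for Cyp51, 2.20 for Sqle, 1.99 for Fdps, 1.95 for Nsdhl and 1.90 for Msmo1. Hmgcs1 and Lss followed at 1.72 and 1.59. Among the regulators, Insig1 had an excess of 1.12 and Srebf2 of 0.83, whereas Scap had 0.26. The smallest differences were those of Ggps1 at 0.19, Lbr at 0.06 and Npc1l1 at -0.02, and Insig2 was lower in array B by a difference of -0.34. Besides these, Ebp, Sc5d and Scap were not highest of the 12 in array B.

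The marker lists of array B lay partly inside and partly outside the range of the other 5 Mdr2-/- arrays, and their part in the excess was not tested. Its mean was 12.51 for the hepatocyte markers, 5.66 for the skeletal muscle markers and 5.87 for the exocrine pancreas markers, inside those ranges (12.38 to 12.52, 5.43 to 5.80 and 5.60 to 5.98). The mean of its 8 macrophage markers, 8.09, was the lowest of the 12, next to 8.12 in array C. Also lowest of the 12 were the 6 bile duct markers on the array, at 5.94 against 6.12 to 6.41 in the other 5. So were the 5 erythroid markers on the array, at 5.93 against 5.99 to 6.17. Of these, 5 bile duct and 3 erythroid markers reached the level needed for testing. The lymphocyte mean of 5.81 and the neutrophil mean of 5.497 lay below the other 5 arrays (5.88 to 6.11 and 5.59 to 6.43), though not below all arrays without the knockout. The endothelial mean of 8.74 and the stellate cell mean of 9.06 lay inside (8.55 to 9.09 and 8.93 to 9.29). Outside the set, Cyp7a1, the rate-limiting enzyme of bile acid synthesis, was also highest in array B, with 10.94, 11.58 and 10.38 in the arrays of Stat3Δhc Mdr2-/- in letter order. Vldlr, the very low density lipoprotein receptor gene, was lower in array B by a difference of -1.27, and the inflammatory genes Lcn2, Ccl2 and Il1b by -1.10, -0.98 and -0.78. These non-members were picked after their values were seen.

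A smaller shift of the same kind was seen in the control. Array A of Stat3Fl/Fl was the highest of its 3 arrays in 19 of the 25 members, against 33.6% of all genes tested, and its members averaged 8.52, against 8.15 and 8.19 in arrays B and C. In Stat3Fl/FlMdr2-/- liver the averages were 8.01, 8.14 and 8.0015, and in Stat3Δhc liver 8.12, 8.07 and 8.09. The pooled SD of this average between arrays of a genotype was 0.33, so that the arrays of Stat3Δhc and Stat3Fl/FlMdr2-/- lay closer together than the others.

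The first comparison set Stat3Δhc Mdr2-/- against Stat3Fl/FlMdr2-/- liver, to ask what Stat3 deletion does to the pathway on the Mdr2 knockout. Most synthesis genes had higher means without Stat3, but none rose by the test: 0 of the 25 members were called up, against 1.87% of all genes tested. Insig2 and Lbr fell, which makes 2 of 25 called down, against 3.9% of all genes. The log2 change was positive in 21 members and negative in 4, with a median of 0.47 (range -0.67 to 1.54), against a median of -0.03 over all 13977 genes. A gene was called at an adjusted p under 0.05 in limma, with Benjamini-Hochberg adjustment over all genes tested, and 12 members had an unadjusted p below the same threshold, against 28.0% of all genes.

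Between mevalonate and squalene, the Mdr2-/- arrays with and without Stat3 overlapped for the genes of largest change. Idi1 was at 7.09, 8.20 and 7.74 in Stat3Fl/FlMdr2-/- and 8.39, 10.54 and 7.30 in Stat3Δhc Mdr2-/- liver, a log2 change of 1.07 (95% interval -0.22 to 2.35, adjusted p = 0.25). Its array B stood 2.15 above the next array of the genotype, while array C lay inside the range of the floxed arrays. Fdps, which makes farnesyl diphosphate, was at 7.19, 7.23 and 7.49 against 7.59, 9.53 and 7.49, a change of 0.90 (95% interval 0.04 to 1.75, adjusted p = 0.164). Arrays A and C again lay near the floxed arrays and array B far above them. Fdft1, squalene synthase, was at 9.70, 9.59 and 9.33 against 9.79, 10.60 and 9.82, a change of 0.53 (95% interval 0.15 to 0.92, adjusted p = 0.0844). All 3 deleted arrays lay above the floxed ones.

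The other 5 genes of this stretch are given by their means and SD over 3 arrays. Hmgcs1, which condenses acetyl units into HMG-CoA, was at 9.24 ± 0.28 in Stat3Fl/FlMdr2-/- and 10.01 ± 0.996 in Stat3Δhc Mdr2-/- liver, with adjusted p = 0.167. The mevalonate kinase gene Mvk was at 6.92 ± 0.19 against 7.46 ± 0.34 (0.0658 adjusted p), and its groups did not overlap. Pmvk and Mvd, the next steps, changed by 0.38 (adjusted p = 0.214) and 0.43 (adjusted p = 0.121). Ggps1, which leads off to protein prenylation, changed by -0.06 (adjusted p = 0.701), with an interval of -0.26 to 0.15.

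From squalene to cholesterol, Msmo1 had the largest change of the set. It encodes an oxidase that takes part in removing methyl groups from the sterol ring. Msmo1 was at 8.85, 9.002 and 8.85 in Stat3Fl/FlMdr2-/- and 10.20, 11.71 and 9.43 in Stat3Δhc Mdr2-/- liver. The deleted arrays were all higher, by a log2 change of 1.54 (95% interval 0.63 to 2.46, adjusted p = 0.0503), a 2.92-fold difference that just missed the threshold. Dhcr7, the reductase of the last step, was at 7.91, 7.98 and 8.01 against 8.56, 9.53 and 8.27, a change of 0.82 (95% interval 0.27 to 1.37, adjusted p = 0.0706). Its groups did not overlap either, and the floxed arrays lay within 0.10 of each other.

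Sqle, Cyp51 and Nsdhl had changes carried by array B. Sqle, which oxidises squalene, was at 6.68, 7.19 and 6.78 against 7.06, 9.14 and 6.81, a change of 0.79 (95% interval -0.18 to 1.75, adjusted p = 0.258). Cyp51, the lanosterol demethylase, was at 6.52, 7.04 and 6.97 against 7.49, 9.38 and 6.60, a change of 0.98 (95% interval -0.09 to 2.05, adjusted p = 0.21). In both genes array C of Stat3Δhc Mdr2-/- lay inside the range of the floxed arrays. Nsdhl, a dehydrogenase of the methyl removal, was at 6.99, 7.27 and 7.09 against 7.21, 9.25 and 7.40, a change of 0.84 (95% interval 0.00 to 1.68, adjusted p = 0.178). Array A was again among the floxed values.

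Lbr fell. It encodes a sterol reductase that is also the lamin B receptor of the inner nuclear membrane, and it was at 8.44, 8.64 and 8.42 in Stat3Fl/FlMdr2-/- and 8.07, 8.07 and 7.96 in Stat3Δhc Mdr2-/- liver, a 1.38-fold fall with a log2 change of -0.47 (95% interval -0.68 to -0.26, adjusted p = 0.0183). The groups did not overlap, and array B was level with array A. Tm7sf2, which encodes the other reductase of the same step, changed by 0.47 (adjusted p = 0.253). Ebp, a sterol isomerase, was at 9.26, 9.40 and 9.36 against 9.12, 9.50 and 8.78, a change of -0.20 (95% interval -0.56 to 0.15, adjusted p = 0.423). Sc5d, the desaturase after it, was at 11.07, 10.77 and 10.79 against 10.75, 11.15 and 10.88, a change of 0.05 (95% interval -0.19 to 0.29, adjusted p = 0.783). For both of these late steps the groups overlapped. Lss and Hsd17b7 had changes of 0.58 (adjusted p = 0.244) and 0.26 (adjusted p = 0.494).

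Of the sterol sensing genes, Insig2 fell. In liver this gene also has a start site of its own that insulin represses. It was at 11.44, 11.31 and 11.33 in Stat3Fl/FlMdr2-/- and 11.01, 10.47 and 10.60 in Stat3Δhc Mdr2-/- liver, a 1.59-fold fall with a log2 change of -0.67 (95% interval -0.98 to -0.36, adjusted p = 0.0193). The 3 deleted arrays all lay below the floxed ones. Insig1, its relative and itself an SREBP2 target, was at 8.58, 8.36 and 8.35 against 9.30, 10.19 and 8.84, a change of 1.01 (95% interval 0.38 to 1.65, adjusted p = 0.0606) that did not pass. Its deleted arrays all lay above the floxed ones. Srebf2 was at 8.33, 8.41 and 8.36 against 8.53, 9.27 and 8.35, a change of 0.35 (95% interval -0.03 to 0.74, adjusted p = 0.214), and the groups overlapped. Scap was at 9.14, 8.89 and 8.66 against 9.08, 9.28 and 8.97, a change of 0.21 (95% interval -0.06 to 0.49, adjusted p = 0.28), also with overlap. Of the handling genes, the uptake transporter gene Npc1l1 changed by 0.44 (adjusted p = 0.0539) with no overlap, and the sterol transfer protein gene Stard4 by 0.18 (adjusted p = 0.52).

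**Figure D2:**
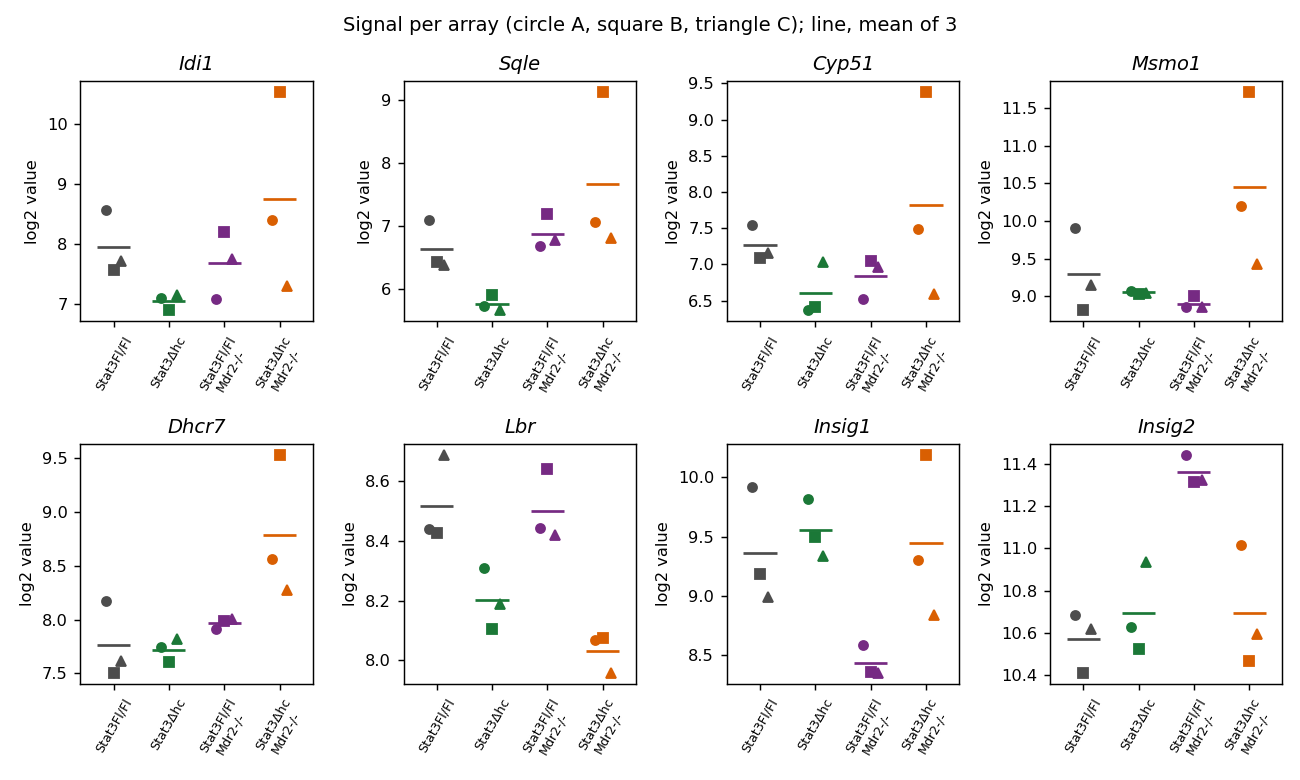
Log2 value per array of 8 members in the 4 genotypes, with circle, square and triangle for arrays A, B and C and a line at the mean of 3 (the scale differs between panels). In Idi1, Sqle and Cyp51 the Stat3Δhc Mdr2-/- mean is raised by array B, whereas the Lbr and Insig2 falls against Stat3Fl/FlMdr2-/- hold in all 3 arrays.

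Markers of other cells also moved in this comparison, and their part was not tested: the 8 macrophage markers all had negative changes (median -0.45, 2 called), as did the 8 endothelial markers (median -0.30, 0 called), and 2 of 9 stellate cell markers fell. Without array B, the positive changes of the synthesis genes were smaller and Lbr was the 1 member called. The median change over the members was 0.13 in place of 0.47, and 1 of 25 members was called, against 2.52% of the 13934 genes then tested. Lbr had a change of -0.49 (adjusted p = 0.0474). Insig2 had -0.56 (adjusted p = 0.0714), Msmo1 0.91 (adjusted p = 0.091), Insig1 0.64 (adjusted p = 0.151) and Dhcr7 0.45 (adjusted p = 0.152), all in the same direction as before. For the genes that array B raised most, the change shrank to 0.17 for Idi1, 0.05 for Sqle, 0.20 for Cyp51, 0.23 for Fdps and 0.19 for Nsdhl. The calls also moved with other settings: cyclic loess called 5 members up (Mvk, Msmo1, Dhcr7, Insig1 and Npc1l1) and the same 2 down, and estimated array weights, which gave array B a weight of 2.86 and array C of the same genotype 0.26, called 19 up. Without array B of Stat3Fl/FlMdr2-/-, 0 members were called, and without array C of Stat3Δhc Mdr2-/-, Msmo1, Dhcr7 and Insig1 were called up and neither Lbr nor Insig2 was called. With the Xist pattern as a covariate, which separates array A from arrays B and C of Stat3Δhc Mdr2-/- and is otherwise shared with genotype, Lbr changed by -0.43 (adjusted p = 0.292), Insig2 by -0.35 (adjusted p = 0.53) and Msmo1 by 1.30 (adjusted p = 0.538), and the members' median was 0.22.

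**Figure D3:**
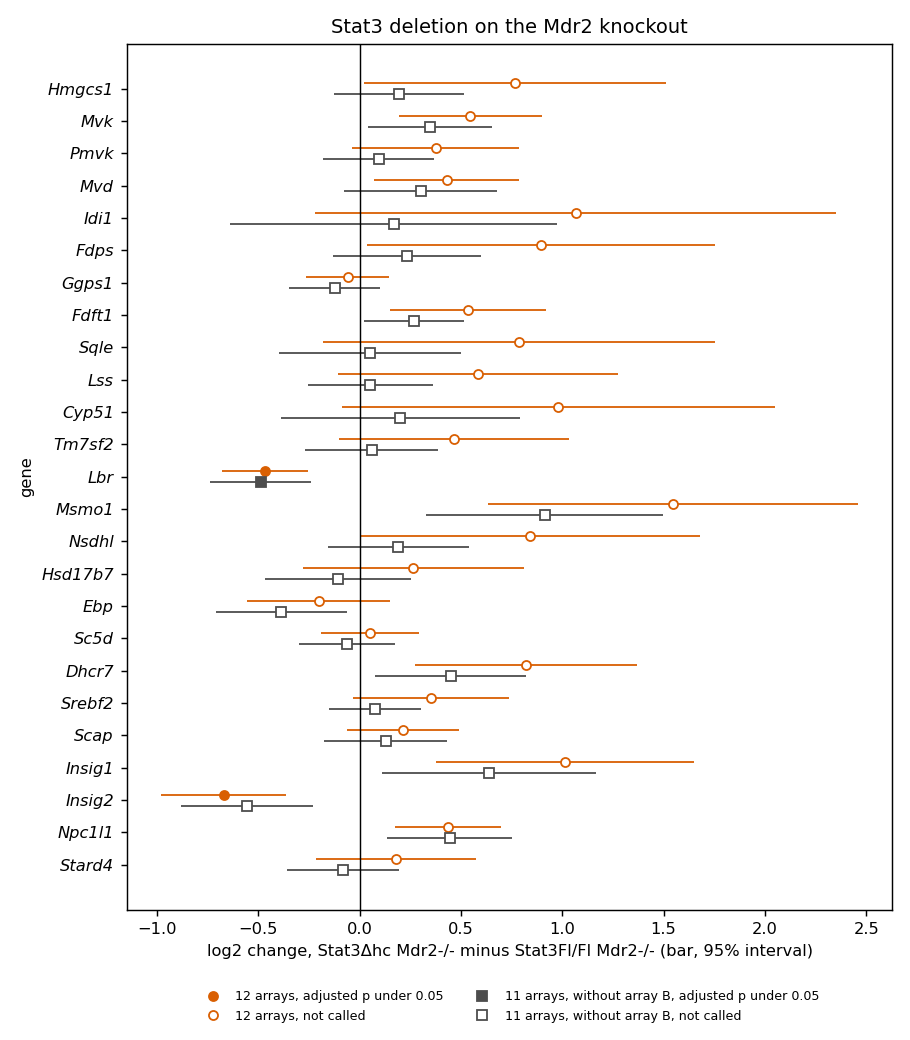
Log2 change of each member, Stat3Δhc Mdr2-/- minus Stat3Fl/FlMdr2-/-, with its 95% interval, in the fit of 12 arrays (circles) and without array B of Stat3Δhc Mdr2-/- (squares), filled where the adjusted p is under 0.05. Without array B the median change goes from 0.47 to 0.13, and Lbr is the filled square.

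Without the Mdr2 knockout, Stat3 deletion gave no call among the members. In Stat3Δhc against Stat3Fl/Fl liver, 0 of 25 members passed, against 2.58% of all genes tested, and 2 had an unadjusted p below the threshold. The median change was -0.18, with 17 members negative and 8 positive, against a median of -0.01 over all genes. It rested largely on array A of Stat3Fl/Fl, the control array with the high members: without it the median was -0.02, and without array C of Stat3Δhc -0.10.

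For Sqle, Idi1, Cyp51, Fdps, Fdft1 and Lbr every deleted array lay below every floxed one, but none passed the test. The same order, also without a call, held for Hmgcs1, Tm7sf2, Sc5d and Stard4. The share of all genes with this order was not counted, so that the list is a description and not a result about the members. Sqle was at 7.09, 6.43 and 6.39 in Stat3Fl/Fl and 5.73, 5.89 and 5.66 in Stat3Δhc liver, a change of -0.87 (95% interval -1.84 to 0.09, adjusted p = 0.361). Idi1 was at 8.57, 7.57 and 7.72 against 7.09, 6.89 and 7.14, a change of -0.91 (95% interval -2.20 to 0.37, adjusted p = 0.499). Neither gene's groups overlapped. Cyp51 was at 7.55, 7.09 and 7.16 against 6.36, 6.41 and 7.03, a change of -0.67 (95% interval -1.73 to 0.40, adjusted p = 0.568). Fdps was at 8.03, 7.37 and 7.46 against 7.24, 7.24 and 7.24, a change of -0.38 (adjusted p = 0.711), and its 3 deleted arrays were nearly equal. Fdft1 was at 9.83, 9.85 and 9.77 against 9.64, 9.47 and 9.45 (-0.30). Lbr, at 8.44, 8.43 and 8.69 against 8.31, 8.11 and 8.19, changed by -0.32 (95% interval -0.53 to -0.10, adjusted p = 0.109), with no overlap.

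Nsdhl and Msmo1 did not share this order. Nsdhl was at 7.48, 6.82 and 7.21 against 6.77, 6.83 and 6.85 (log2 change -0.35, adjusted p = 0.727), with overlap through array B of Stat3Fl/Fl. Msmo1 was at 9.91, 8.82 and 9.15 in Stat3Fl/Fl and 9.07, 9.03 and 9.05 in Stat3Δhc liver, so that its deleted arrays lay within the floxed range (log2 change -0.24, adjusted p = 0.834). Dhcr7 was at 8.18, 7.50 and 7.61 against 7.74, 7.60 and 7.82 (log2 change -0.04, adjusted p = 0.959). Ebp was at 10.001, 9.51 and 9.52 against 9.78, 9.72 and 9.76 (log2 change 0.07, adjusted p = 0.872). These 3 genes of the late steps overlapped between the genotypes. Sc5d was at 11.42, 11.26 and 11.38 against 11.08, 11.07 and 11.17, all deleted arrays lower (log2 change -0.25, adjusted p = 0.299).

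The regulators had changes of under 0.2 in size on the log2 scale. Srebf2 was at 8.65, 8.45 and 8.35 against 8.44, 8.34 and 8.39 (log2 change -0.10, adjusted p = 0.845). Scap was at 9.17, 9.35 and 9.02 against 9.40, 9.25 and 9.26 (log2 change 0.12, adjusted p = 0.71). Insig1 was at 9.92, 9.18 and 8.99 against 9.82, 9.49 and 9.34 (log2 change 0.19, adjusted p = 0.815), and its arrays of both genotypes overlapped. Insig2 was at 10.68, 10.41 and 10.62 against 10.63, 10.52 and 10.94 (log2 change 0.13, adjusted p = 0.738), with an interval of -0.18 to 0.43. The other 10 members changed by between -0.36 (Stard4) and 0.17 (Hsd17b7), with adjusted p from 0.357 to 0.991. Array B of Stat3Δhc Mdr2-/- enters this comparison through the spread shared by the 4 genotypes. Without it, the median SE of the members fell from 0.19 to 0.13, against 0.11 in both fits over all genes. Sqle then passed the test (-0.87, adjusted p = 0.0331), 1 of 25 members against 2.25% of all genes. Array B was singled out by the members' own high values, so the smaller spread, and the call that rests on it, follow from that choice.

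The difference between the Stat3 effects with and without the knockout was tested directly, and 0 of 25 members passed, against 0.0715% of all genes. At an unadjusted p below the threshold there were 12 members, against 16.9% of all genes tested. The median difference was 0.61, with 21 members positive. It was largest for Idi1 at 1.98 (95% interval 0.16 to 3.80, adjusted p = 0.271), Msmo1 at 1.79 (95% interval 0.50 to 3.08, adjusted p = 0.23), Sqle at 1.66 (95% interval 0.29 to 3.03, adjusted p = 0.251) and Cyp51 at 1.65 (95% interval 0.14 to 3.16, adjusted p = 0.271). Insig2 had the most negative difference, -0.79 (95% interval -1.23 to -0.36, adjusted p = 0.19). Without array B, 0 members passed again (0 of all genes were called) and the median difference was 0.42. Without array A of Stat3Δhc Mdr2-/-, Insig2 passed.

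Mdr2 loss was then compared within each Stat3 genotype. The comparisons share the arrays of the ones above, so that a high or low group enters each of them. In floxed liver, Stat3Fl/FlMdr2-/- against Stat3Fl/Fl, Insig2 rose and Sc5d fell: 1 of 25 members was called up, against 7.12% of all genes, and 1 down, against 5.65%. The median change was -0.28, with 21 members negative, against a median of 0.00 over all genes. It was -0.09 without array A of Stat3Fl/Fl and -0.18 without array C of Stat3Fl/FlMdr2-/-. The 3 Stat3Fl/FlMdr2-/- arrays have the Xist pattern and the 3 Stat3Fl/Fl arrays do not, and the skeletal muscle markers fell in 15 of 15 genes, so that neither can be told apart from the genotype here. Of the other marker lists, 2 of 3 tested erythroid genes fell, and 2 of 9 stellate cell genes fell and 1 rose. In addition, 1 of 8 macrophage markers fell, and 1 of 5 tested bile duct and 1 of 8 endothelial markers rose. With the Xist pattern as a covariate, which rests on array A of Stat3Δhc Mdr2-/- alone, the median was 0.04, with 13 members positive and 12 negative, and 0 members were called, with Insig2 at 0.31 (adjusted p = 0.617) and Sc5d at -0.22 (adjusted p = 0.707).

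Insig2 rose 1.73-fold, from 10.68, 10.41 and 10.62 to 11.44, 11.31 and 11.33, a log2 change of 0.79 (95% interval 0.48 to 1.10, adjusted p = 0.0033). The 3 Mdr2-/- arrays were the highest of the 6 and lay within 0.13 of each other. Sc5d fell 1.4-fold, from 11.42, 11.26 and 11.38 to 11.07, 10.77 and 10.79, a change of -0.48 (95% interval -0.72 to -0.24, adjusted p = 0.014). Its groups did not overlap. Insig1 went from 9.92, 9.18 and 8.99 to 8.58, 8.36 and 8.35, a change of -0.93 (95% interval -1.57 to -0.30, adjusted p = 0.0554), with each knockout array below each control. Of the enzymes, Hmgcs1 changed by -0.91 (95% interval -1.65 to -0.17, adjusted p = 0.106) and Tm7sf2 by -0.79 (95% interval -1.36 to -0.22, adjusted p = 0.0674), both with no overlap. Dhcr7 and Sqle had small positive changes, 0.20 (adjusted p = 0.667) and 0.25 (adjusted p = 0.777). Msmo1, Idi1, Cyp51 and Fdps had negative ones, from -0.42 to -0.28, with wide intervals. Srebf2 changed by -0.12 (adjusted p = 0.726) and Scap by -0.28 (adjusted p = 0.181).

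Array B of Stat3Δhc Mdr2-/- was singled out because members were high in it, so leaving it out lowers their spread by that choice. The median SE of the members went from 0.19 to 0.13, against 0.11 in both fits over all genes. More members were called down with array B left out, which changes none of these 6 arrays and only the shared spread. Insig2 was then the 1 member up, against 6.71% of all genes. The 5 members down, against 5.52% of all genes, were Hmgcs1 (adjusted p = 0.00121), Tm7sf2 (0.00323), Sc5d (0.0081), Insig1 (0.0161) and Stard4 (0.0304). Sc5d kept a change of -0.58 to -0.43 whichever array was left out, and was not called without array A of Stat3Fl/Fl, or without array B or C of Stat3Fl/FlMdr2-/- (highest adjusted p = 0.0593). Insig2 was called in each.

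In Stat3Δhc liver, Stat3Δhc Mdr2-/- against Stat3Δhc, 4 synthesis genes rose and 1 fell. The 4 of 25 members called up stood against 6.9% of all genes, and the 1 called down against 10.5%. Sqle rose 3.75-fold, from 5.73, 5.89 and 5.66 to 7.06, 9.14 and 6.81, a log2 change of 1.91 (95% interval 0.94 to 2.87, adjusted p = 0.0123). Each knockout array lay at least 0.91 above the highest Stat3Δhc array. Dhcr7 rose 2.09-fold, from 7.74, 7.60 and 7.82 to 8.56, 9.53 and 8.27, a change of 1.07 (95% interval 0.52 to 1.61, adjusted p = 0.0133). Msmo1 rose 2.63-fold from 9.07, 9.03 and 9.05, a change of 1.40 (95% interval 0.48 to 2.31, adjusted p = 0.0391), and Fdft1 rose 1.47-fold from 9.64, 9.47 and 9.45, a change of 0.55 (95% interval 0.17 to 0.93, adjusted p = 0.0491). None of the 4 overlapped between the genotypes. Ebp fell 1.53-fold, from 9.78, 9.72 and 9.76 to 9.12, 9.50 and 8.78, a change of -0.62 (95% interval -0.97 to -0.26, adjusted p = 0.0225), also with no overlap.

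Over all 25 members the median change was 0.26, with 16 positive and 9 negative. Idi1 had a change of 1.70 (95% interval 0.42 to 2.99, adjusted p = 0.0657), Nsdhl of 1.14 (95% interval 0.30 to 1.98, adjusted p = 0.0603), Cyp51 of 1.22 (95% interval 0.15 to 2.29, adjusted p = 0.103) and Fdps of 0.96 (95% interval 0.10 to 1.82, adjusted p = 0.109). They were not called, and array B carried much of each. The sensing genes had smaller changes: Insig2 changed by -0.004 (95% interval -0.31 to 0.30, adjusted p = 0.987), Insig1 by -0.11 (95% interval -0.74 to 0.53, adjusted p = 0.813), Scap by -0.19 (adjusted p = 0.294) and Srebf2 by 0.33 (adjusted p = 0.204). Without array B, Sqle rose by 1.17 (adjusted p = 0.00417) and Dhcr7 by 0.69 (adjusted p = 0.0205), 2 of 25 against 5.51% of all genes. Ebp changed by -0.80 (adjusted p = 0.00533), 1 of 25 down against 8.93%. The median over the 25 members was then 0.05, with 13 positive and 12 negative. Msmo1 and Fdft1 had 0.76 (adjusted p = 0.076) and 0.29 (adjusted p = 0.108). The adjusted p-values without array B share the limit given above, that this array was singled out by the members' own values. Without array A or without array C of Stat3Δhc, Sqle and Dhcr7 were the members called. Without array C of Stat3Δhc Mdr2-/-, 7 rose (with Idi1, Cyp51 and Nsdhl besides the 4) and Ebp was not called. With each of the 12 arrays left out in turn, Fdft1 kept its call in 2 fits and Msmo1 in 6. Fdft1 was also not called with no filter, the mean of its 2 clusters, median centring, a block by replicate letter or only the groups compared. The skeletal muscle markers fell in 15 of 15 genes here too, as did 2 of 11 exocrine pancreas, 3 of 3 erythroid and 3 of 8 endothelial markers. Of 9 stellate cell markers, 4 rose and 4 fell. Of 5 tested bile duct markers, 1 rose and 1 fell. In addition, 2 of 6 tested lymphocyte and 1 of 8 macrophage markers rose, and 3 of 10 hepatocyte markers fell.

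**Figure D4:**
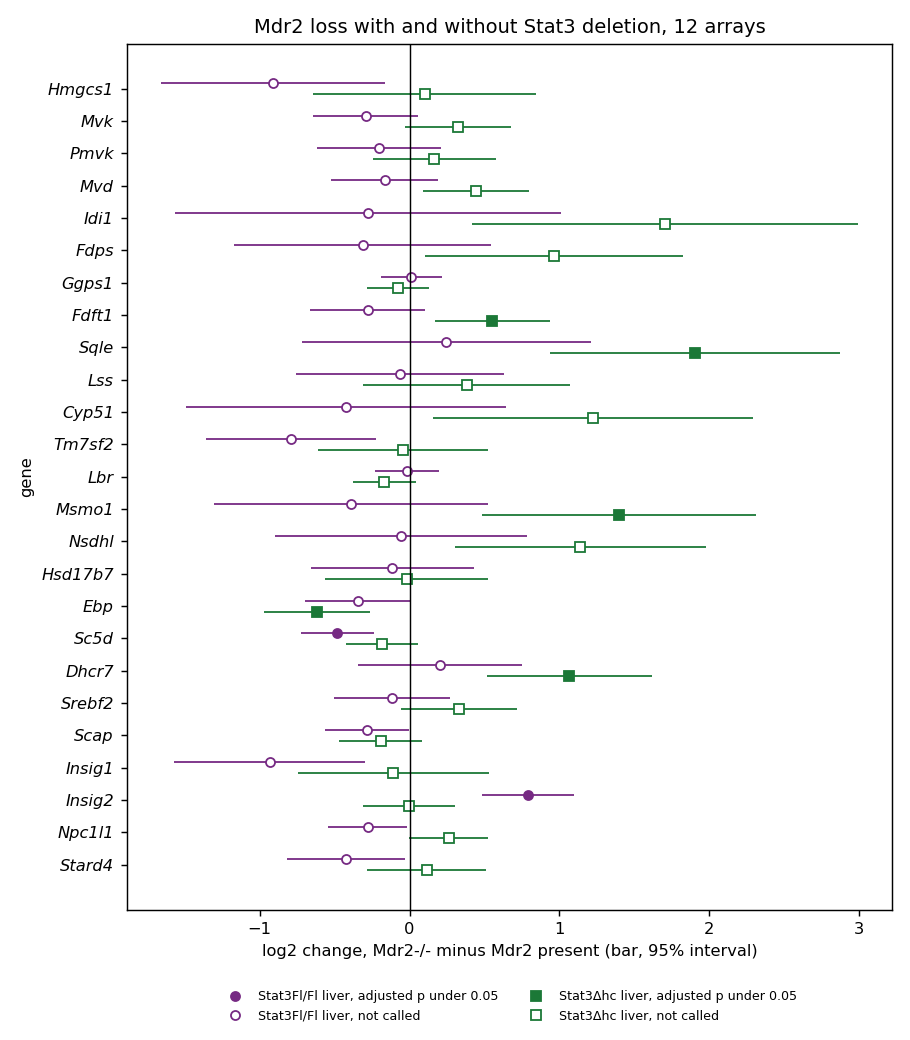
Log2 change of each member with Mdr2 loss and its 95% interval, in floxed liver (circles) and in Stat3Δhc liver (squares), from the fit of 12 arrays, filled where the adjusted p is under 0.05. Insig2 and Sc5d are called in floxed liver, and Fdft1, Sqle, Msmo1, Dhcr7 (up) and Ebp (down) in Stat3Δhc liver.

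By genotype, the members fell into several orders. Insig2 was high in 1 genotype, with means of 10.57 ± 0.14 in Stat3Fl/Fl, 10.70 ± 0.21 in Stat3Δhc, 11.36 ± 0.07 in Stat3Fl/FlMdr2-/- and 10.69 ± 0.29 in Stat3Δhc Mdr2-/- liver (SD, n = 3). The lower 3 did not differ from each other beyond their spread. Array A of Stat3Δhc Mdr2-/-, which shares the Xist pattern of the Stat3Fl/FlMdr2-/- arrays, was at 11.01 for Insig2. That lay above every array without the pattern, of which the highest was at 10.94. The order of Insig2 thus follows the Xist pattern as well as the genotype, and the part of each was not tested here. Insig1 was lowest where Insig2 was highest, in Stat3Fl/FlMdr2-/-, at 8.43 ± 0.13 and at 9.36 ± 0.49, 9.55 ± 0.24 and 9.44 ± 0.69 in Stat3Fl/Fl, Stat3Δhc and Stat3Δhc Mdr2-/- liver. Sqle had its lowest mean in Stat3Δhc, 5.76 ± 0.12, and means of 6.63 ± 0.40, 6.88 ± 0.27 and 7.67 ± 1.28 in Stat3Fl/Fl, Stat3Fl/FlMdr2-/- and Stat3Δhc Mdr2-/-. The last holds array B at 9.14. Ggps1 was flat, with means of 7.14 to 7.22.

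Neighbouring genes were followed as fixed lists, beside the shares of all genes called in the same comparisons (1.87% up and 3.9% down with Stat3 deletion on the knockout, 7.12% and 5.65% with Mdr2 loss in floxed liver, 6.9% and 10.5% in Stat3Δhc liver). Of 9 tested genes of SREBP processing and INSIG turnover, 1 fell in each of 3 comparisons, and it was Srebf1, which encodes the fatty acid regulator SREBP1. Srebf1 was at 10.29, 9.88 and 10.17 in Stat3Fl/Fl, 9.88, 9.86 and 10.05 in Stat3Δhc, 9.41, 9.37 and 8.97 in Stat3Fl/FlMdr2-/- and 8.77, 8.77 and 8.69 in Stat3Δhc Mdr2-/- liver. It fell with Mdr2 loss, with log2 changes of -0.86 (adjusted p = 0.000951) in floxed and -1.19 (adjusted p = 8.39e-05) in Stat3Δhc liver, and with Stat3 deletion on the knockout, with -0.50 (adjusted p = 0.0393). Array B of Stat3Δhc Mdr2-/- was level with array A for Srebf1. Of 12 lipogenic genes that SREBP controls, Acss2 rose (log2 change 0.89, adjusted p = 0.00529) and Me1 fell (log2 change -1.01, adjusted p = 0.00492) with Stat3 deletion on the knockout, and the list's median change was 0.03.

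Single genes of sterol export and transport were called with Mdr2 loss, without a common direction over their lists in floxed liver. Of 8 tested genes of LXR and sterol export, 5 had positive changes there (median 0.05). Abcg5 and Abcg8, whose products pump sterol into bile, both fell in floxed liver. The log2 change was -0.50 (adjusted p = 0.019) for Abcg5 and -0.69 (adjusted p = 0.0154) for Abcg8. They fell in Stat3Δhc liver too, Abcg5 with -0.88 (adjusted p = 0.000633) and Abcg8 with -0.95 (adjusted p = 0.00231). Abca6 of the same list rose in floxed liver (log2 change 0.38, adjusted p = 0.0459). Of 14 genes of intracellular sterol transport, 9 had positive changes in floxed liver (median 0.04). Cav1 fell in both (-1.06 and -1.19), Scp2 fell in Stat3Δhc liver (log2 change -0.36, adjusted p = 0.0166) and Stard3 rose in floxed liver (log2 change 0.28, adjusted p = 0.0477). Of 13 genes of the isoprenoid branches, 1 (Rabggta) was called down with Mdr2 loss when Stat3 was floxed, near the 5.65% of all genes. When it was deleted, 3 were called down (Rabggta, Fnta and Pggt1b), against 10.5%. Of 7 tested genes of sterol catabolism, 2 rose with Stat3 deletion on the knockout, among them Cyp27a1, a sterol hydroxylase gene (log2 change 0.71, adjusted p = 0.0154), against 1.87% of all genes. Without the knockout 2 rose, Cyp39a1, a hydroxylase gene too (log2 change 1.31, adjusted p = 0.00119), and Cyp27a1 (log2 change 1.11, adjusted p = 0.00162), where 2.58% of all genes were called in either direction. With Mdr2 loss Hsd3b7, a dehydrogenase gene of bile acid synthesis, fell in floxed (log2 change -0.52, adjusted p = 0.00571) and in Stat3Δhc liver (log2 change -0.82, adjusted p = 0.000298), while Cyp27a1 rose in floxed liver (log2 change 0.59, adjusted p = 0.0165). Sterol synthesis in liver follows the time of day, which the labels do not give. Of 12 tested genes of the clock, Per1 rose (log2 change 0.98, adjusted p = 0.00532) and Per3 fell (log2 change -0.83, adjusted p = 0.0119) with Mdr2 loss in floxed liver, near the 7.12% and 5.65% of all genes called up and down, and 0 passed in the other comparisons.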

How the data were processed

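Whole liver RNA of 12 samples, 1 array each, was read on Affymetrix Mouse Gene 1.0 ST. Per the submitters' processing notes, the authors made the log2 values with RMA, which corrects background, normalizes by quantiles and summarizes probes; its version is not given in the sources used here. Quantile normalization fixes each array's distribution, so changes are relative to other genes. Of 35556 clusters, 21789 named 1 gene in the platform annotation. Testing needed a level over the 40th percentile of an array, in 3 arrays or more (13977 genes). Changes were fitted with limma 3.58.1 in R 4.3.3 (lmFit, eBayes, Benjamini-Hochberg, threshold 0.05) on 12 arrays with 8 residual degrees of freedom. The code was tested on simulated data. Values per array are given for members called in any comparison, for the 8 of largest change with Stat3 deletion on the knockout, and for Srebf2, Scap, Insig1 and Insig2. From other lists, up to 3 called genes are named. Members, lists, markers and this rule were chosen with earlier results of these data known. Alternatives changed the filter, scaling, moderation, arrays, groups and covariates. Promoter letters were searched in Python 3.11.15, and figures drawn with matplotlib 3.10.9.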

Additional observations from a re-analysis of the deposited data

How the results depend on the processing

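The counts of members called depended on the setting, and the cause of each move was not tested unless named. For Stat3 deletion on the Mdr2 knockout the 2 calls became 4 with the stricter filter, 7 with cyclic loess, 21 with array weights, and 0 with only the groups compared (fewer residual degrees of freedom) or with the Xist pattern as a covariate (shared with genotype). All genes called went from 806 to 2298, 230 and 37 in the last 3, and the members' median change to 0.83 with array weights. Without the knockout, array weights called 3 members and 2955 genes, and only the groups compared called 1 member. The largest weight of the 12 arrays, 9.01, went to array A of Stat3Δhc, which enters each comparison that uses this genotype. For the difference of the Stat3 effects, 13 members and 567 genes were called with array weights, against 0 members in the other settings on 12 arrays, and genes called went from 10 to 6 with no filter, 23 with trend and robust moderation and 6 with the covariate. For Mdr2 loss in floxed liver the members called were 6 with only the groups compared and 0 with the covariate (102 genes in place of 1785). In Stat3Δhc liver they were 19 with array weights (5830 genes) and 2 with only the groups compared (1541 genes in place of 2431). The members' median change also moved by over 1.5 times: with array weights from -0.18 to -0.09 for Stat3 deletion without the knockout, from 0.61 to 0.92 for the difference and from 0.26 to 0.51 for Mdr2 loss in Stat3Δhc liver, where the stricter filter gave 0.17. With the covariate it was 0.22 on the knockout, 0.39 for the difference and 0.04, in place of -0.28, for Mdr2 loss in floxed liver.

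With the replicate block by letter, members called were 2, 0, 0, 3 and 3 for the 5 comparisons in the order of the report, and genes called 473, 237 and 3 for the Stat3 comparisons and their difference. Deviations from the genotype means gave 18 correlations between same-letter arrays of different genotypes, from -0.41 to 0.37 (median -0.06). Different-letter arrays gave 36, from -0.37 to 0.48 (median 0.01). Deviations from a mean of 3 arrays depend on each other, so these values cannot show what same-letter arrays share.

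Other scalings shifted the split of all calls. On the knockout, 261 genes were higher and 545 lower, against 466 and 444 with cyclic loess. For the difference, 2 and 8 became 4 and 7. With median centring, 995 and 790 became 673 and 888 for Mdr2 loss in floxed liver, and 964 and 1467 became 635 and 2052 in Stat3Δhc liver.

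Leaving out each array in turn gave 0 to 6 members called on the knockout (300 to 1474 genes, members' median 0.13 to 0.66), 0 to 1 without it (69 to 753 genes), 0 to 1 for the difference (0 to 64 genes), 1 to 6 for Mdr2 loss in floxed liver (1098 to 2139 genes) and 2 to 7 in Stat3Δhc liver (1153 to 2606 genes). The median ranged from -0.27 to -0.02 without the knockout, 0.42 to 0.74 for the difference, -0.31 to -0.09 for Mdr2 loss in floxed liver and 0.05 to 0.41 in Stat3Δhc liver, where it was 0.17 without array C of Stat3Δhc and 0.41 without array C of Stat3Δhc Mdr2-/-. The 6 on the knockout, and 6 with Mdr2 loss in Stat3Δhc liver, came without array A of Stat3Δhc Mdr2-/-. On the knockout there were 4 without array A of Stat3Fl/Fl, and 3 without array B or C of Stat3Δhc or array C of Stat3Δhc Mdr2-/-. With Mdr2 loss in Stat3Δhc liver there were 3 without array B of Stat3Δhc or array C of either floxed genotype, and in floxed liver 3 without array A or C of Stat3Δhc Mdr2-/-.

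Signs turned for changes that were not called. With array weights these were Ebp on the knockout (0.0464), Dhcr7 without it (0.0305) and Insig1 with Mdr2 loss in Stat3Δhc liver (0.18), where Insig2 turned with cyclic loess (0.0678). With the covariate they were Sc5d on the knockout (-0.12) and, for Mdr2 loss in floxed liver, Fdft1 (0.15), Idi1 (0.25), Cyp51 (0.0716), Fdps (0.61), Nsdhl (1.06) and Srebf2 (0.16). Over the left-out arrays Sc5d ranged from -0.0609 to 0.15 on the knockout. Without the knockout Dhcr7 ranged from -0.17 to 0.16, Ebp from -0.0101 to 0.24, Insig1 from -0.0005 to 0.47 and Msmo1 from -0.48 to 0.0681. The difference for Scap ranged from -0.0263 to 0.21. For Mdr2 loss in floxed liver Idi1 ranged from -0.54 to 0.0331, Lbr from -0.0871 to 0.0679 and Nsdhl from -0.23 to 0.10, and in Stat3Δhc liver Insig1 ranged from -0.48 to 0.20 and Insig2 from -0.17 to 0.12. Of the changes of named members under the alternatives, 1506 kept sign and side of the threshold, 54 passed it newly, 43 no longer passed and 32 turned sign. Most of these changes were not called in the main fit, so that most of the 1506 stayed uncalled. The 43 come from the called changes alone, and the 1506 do not measure how stable the calls are. The 3 arrays per genotype limit the precision of each value.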
